A study of Mus musculus with 8 samples.

Results

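Markers of neural stem cells and radial glia, 10 genes in all, were followed across 8 arrays of mouse neurospheres. The 10 genes are Nes, Sox2, Pax6, Fabp7, Vim, Slc1a3, Nr2e1, Prom1, Sox9 and Msi1, taken as a list of names, and their probes were found through the RefSeq accession that each array file gives. They had 13 probes, out of 27235 of 55681 probes that matched a gene. Neurospheres are clusters grown from neural stem cells. These came from the ganglionic eminence, the ventral part of the embryonic forebrain of E14.5 embryos, with each sample grown from 1 brain and used at the quaternary passage. Per the labels, 2 samples were HP1gamma KO (-/-) in adherent culture, 3 were HP1gamma KO (-/-) in floating culture and 3 were wild type (+/+) in floating culture. They are called KO adherent, KO floating and WT floating here, and HP1gamma is the product of Cbx3. All 3 groups share a medium with EGF and bFGF at 20 ng/ml each and 7 days of culture. The protocol describes low-attachment plates for all of them and does not describe the adherent culture. Neither the strain nor the kind of Cbx3 allele is named in the labels.

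Radial glia are the stem cells of the embryonic brain, whose long fibres span its wall and guide young neurons. They carry the intermediate filaments nestin and vimentin and the transcription factor Pax6. Sox2 and the nuclear receptor encoded by Nr2e1 keep them from turning into neurons. Later radial glia take up glutamate through the transporter encoded by Slc1a3 and hold the fatty acid binding protein encoded by Fabp7, both of which astrocytes keep. Neurospheres hold stem cells beside more restricted progenitors and some differentiating cells. In such bulk RNA, fewer cells of a type and less RNA per cell cannot be told apart.

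The targeted gene went against the label of 2 arrays, so the comparisons are given with and without them. All values below are log2 signals relative to the 75th percentile of the array, and levels are compared only within a probe. The array labelled KO adherent 2 gave a Cbx3 signal of 5.91, beside -2.03 on KO adherent 1 and -2.76 to -1.75 on the KO floating arrays. The array labelled WT floating 2 gave -2.17, beside 5.83 and 5.95 on WT floating 1 and 3. No source here says whether the Cbx3 probe lies in the deleted part. The 75th percentile itself ranged from 616 to 865 intensity units, and 44.5% to 55.4% of spots were well above background.

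All 10 genes had a probe well above background on 8 of 8 arrays, and the probe with the highest mean stands for the gene. Detection alone does not set these markers apart, since 7 or 8 of 8 astrocyte genes were also above background on each array. No spot was saturated. The spread over the 8 arrays differed between the genes. Prom1 had the largest SD of the 10, 0.74, followed by Slc1a3 at 0.55, Nr2e1 at 0.53, Fabp7 at 0.52 and Nes at 0.47. The smallest were Pax6 at 0.25, Sox2 at 0.24 and Msi1 at 0.15. The median SD of the 18846 features above background on all 8 arrays was 0.30, so 7 of the 10 lay above it.

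**Figure D1:**
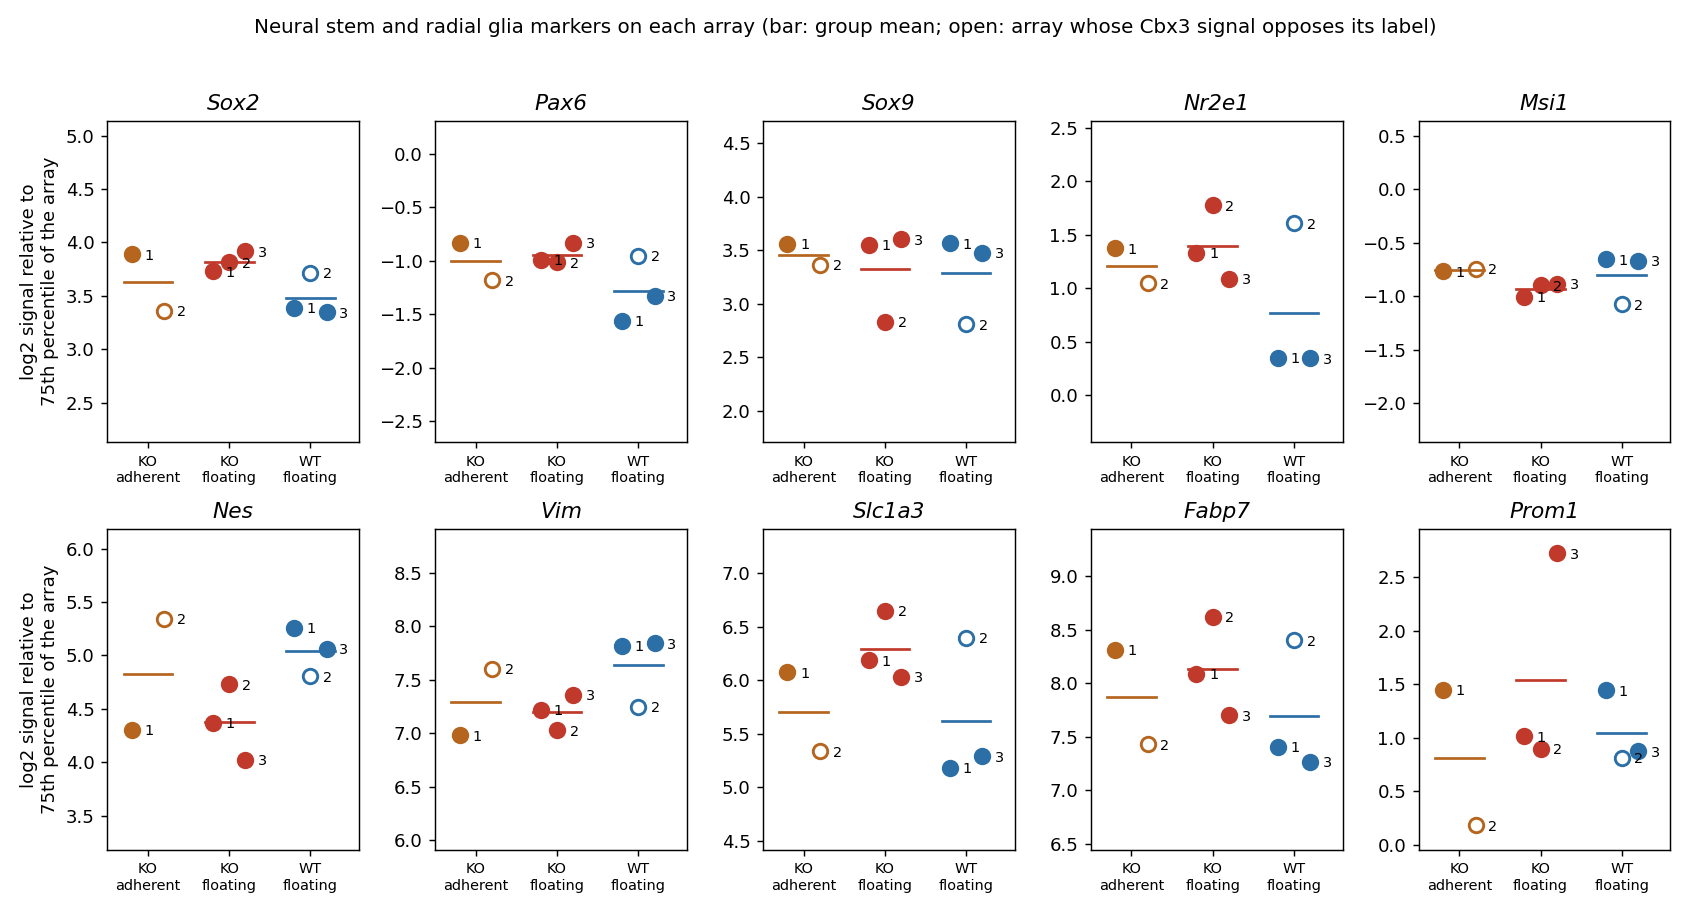
Signal of each of the 10 markers on each array, on the log2 scale relative to the 75th percentile of the array, with KO adherent, KO floating and WT floating from left to right. Points carry the replicate number, bars are group means, every panel spans 3 log2 units, and open points are the arrays labelled KO adherent 2 and WT floating 2. Slc1a3 on the array labelled WT floating 2 (6.40) stands with the KO floating points (6.03 to 6.65).

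The promoters of the 5 members with the largest changes reported below are shown first, so that what they share can be set against how they moved. Slc1a3, Nr2e1 and Fabp7 were on the higher side in KO neurospheres, and Vim and Nes on the lower side. The windows are the 250 bases before the annotated start, from RefSeq on GRCm38.p6, written 5′ to 3′ on the gene's strand. They are chr15:8710808-8711057 on the minus strand for Slc1a3, chr10:42583591-42583840 on the minus strand for Nr2e1, chr10:57784673-57784922 on the plus strand for Fabp7, chr2:13574061-13574310 on the plus strand for Vim and chr3:87970843-87971092 on the plus strand for Nes. Capitals mark every match, on either strand, to GGGCGG (the GC box), CCAAT (the CCAAT box) or TGGGAA (the core bound by RBPJ, the DNA-binding partner of Notch), and no matches overlap in these windows.
Slc1a3: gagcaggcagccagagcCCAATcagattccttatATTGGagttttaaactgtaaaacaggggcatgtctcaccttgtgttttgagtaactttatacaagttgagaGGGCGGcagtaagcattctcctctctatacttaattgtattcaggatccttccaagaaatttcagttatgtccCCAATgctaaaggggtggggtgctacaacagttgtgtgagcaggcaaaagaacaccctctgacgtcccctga
Nr2e1: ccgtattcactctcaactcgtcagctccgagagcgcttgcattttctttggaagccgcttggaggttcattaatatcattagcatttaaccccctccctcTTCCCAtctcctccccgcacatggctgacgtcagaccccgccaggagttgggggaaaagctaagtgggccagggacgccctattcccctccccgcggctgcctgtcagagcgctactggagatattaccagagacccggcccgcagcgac
Fabp7: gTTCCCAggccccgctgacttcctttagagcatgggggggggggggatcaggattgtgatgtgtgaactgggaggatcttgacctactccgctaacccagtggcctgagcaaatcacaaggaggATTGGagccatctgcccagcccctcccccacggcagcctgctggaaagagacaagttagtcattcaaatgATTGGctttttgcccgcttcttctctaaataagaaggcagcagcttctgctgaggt
Vim: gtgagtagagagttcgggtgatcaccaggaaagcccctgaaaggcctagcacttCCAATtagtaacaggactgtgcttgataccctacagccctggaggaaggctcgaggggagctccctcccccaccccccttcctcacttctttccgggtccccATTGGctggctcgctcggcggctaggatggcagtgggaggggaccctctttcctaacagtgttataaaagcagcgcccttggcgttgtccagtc
Nes: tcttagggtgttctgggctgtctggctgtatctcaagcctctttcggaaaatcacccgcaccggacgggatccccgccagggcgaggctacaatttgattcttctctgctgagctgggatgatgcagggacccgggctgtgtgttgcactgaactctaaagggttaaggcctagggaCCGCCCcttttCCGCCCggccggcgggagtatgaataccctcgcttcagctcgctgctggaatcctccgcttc

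No motif was common to the 3 genes on the higher side, and none to Vim and Nes. CCAAT had 3 matches in Slc1a3, 2 in Fabp7 and 2 in Vim, and it was in 33.8% of 32851 promoter windows. TGGGAA had 1 match each in Nr2e1 and Fabp7, against 21.6% of all windows, and none in the other windows shown. GGGCGG had 1 match in Slc1a3 and 2 in Nes, against 32.7% of all windows. The number of CpG dinucleotides also differed, with 15 in Nr2e1, 15 in Nes, 8 in Vim, 4 in Fabp7 and 2 in Slc1a3, where the median window had 6. A match describes letters in the window and is not a bound site.

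The glial genes Slc1a3 and Fabp7 had their highest level on KO floating 2. Slc1a3, the glutamate transporter of radial glia and astrocytes, had 6.07 on KO adherent 1, 6.18, 6.65 and 6.03 on KO floating 1, 2 and 3, and 5.18 and 5.29 on WT floating 1 and 3. The array labelled KO adherent 2 had 5.33 and the array labelled WT floating 2 had 6.40. The array labelled KO adherent 2 thus stood next to WT floating 1 and 3, and the array labelled WT floating 2 within the range of KO floating. Fabp7, brain fatty acid binding protein, had 8.32 on KO adherent 1, 8.09, 8.62 and 7.70 on KO floating 1, 2 and 3, and 7.41 and 7.26 on WT floating 1 and 3. The array labelled KO adherent 2 had 7.43 and the array labelled WT floating 2 had 8.40. As with Slc1a3, WT floating 1 and 3 were the lowest of the 8 arrays, and the KO floating arrays spread more widely than for Slc1a3.

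Among the transcription factors, Nr2e1, Sox2 and Pax6 were also low on WT floating 1 and 3, while Sox9 was not. Nr2e1, an orphan nuclear receptor that keeps neural stem cells from differentiating, had 1.37 on KO adherent 1, 1.33, 1.77 and 1.09 on KO floating 1, 2 and 3, and 0.35 on each of WT floating 1 and 3. The array labelled KO adherent 2 had 1.05, close to KO floating 3, and the array labelled WT floating 2 had 1.61. Nr2e1 is therefore a member in which the array labelled KO adherent 2 stood nearer to the other KO arrays than to the WT arrays.

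Sox2, an HMG-box factor of stem cell identity, had 3.89 on KO adherent 1 and 3.36 on the array labelled KO adherent 2. It had 3.73, 3.81 and 3.92 on KO floating 1, 2 and 3, against 3.39 and 3.35 on WT floating 1 and 3 and 3.72 on the array labelled WT floating 2. KO floating and WT floating did not overlap even as labelled, although the gap was narrow. Pax6, a paired-box factor of dorsal radial glia, had -0.83 on KO adherent 1, -1.18 on the array labelled KO adherent 2, and -0.99, -1.02 and -0.83 on KO floating 1, 2 and 3. WT floating 1 had -1.56, WT floating 3 had -1.33 and the array labelled WT floating 2 had -0.95. Pax6 was lowest on WT floating 1 and 3.

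Sox9, an HMG-box factor that starts gliogenesis, was low on 2 arrays that share a replicate number rather than a genotype label. It had 3.56 and 3.36 on KO adherent 1 and 2 and 3.55, 2.83 and 3.60 on KO floating 1, 2 and 3, against 3.56, 2.81 and 3.48 on WT floating 1, 2 and 3. Up to 10 spots carry its probe, and their SD within an array ranged from 0.0254 to 0.110, well under the drop on KO floating 2 and the array labelled WT floating 2. The immediate early gene Nr4a1, which responds to handling and growth factors, had 4.83 and 4.50 on the same 2 arrays and 7.43 to 8.01 on the other 6. They lie in the same row of the slide, as do WT floating 1 and KO floating 1, where Sox9 was 3.56 and 3.55. The array labelled KO adherent 2 shares their replicate number and had 3.36. The part of replicate number, slide row or handling in the Sox9 level was not tested.

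The filament genes were highest where the glial genes were lowest, on WT floating 1 and 3 and the array labelled KO adherent 2. Within KO floating, Nes instead ran with Slc1a3 and Fabp7, highest on KO floating 2 and lowest on KO floating 3. Nes, the intermediate filament nestin, had 4.31 on KO adherent 1, 5.34 on the array labelled KO adherent 2 and 4.37, 4.73 and 4.03 on KO floating 1, 2 and 3. WT floating 1 had 5.26, WT floating 3 had 5.06 and the array labelled WT floating 2 had 4.81. All 3 KO floating arrays lay below all 3 WT floating arrays. Vim, the intermediate filament vimentin, had 6.98 on KO adherent 1, 7.60 on the array labelled KO adherent 2 and 7.22, 7.03 and 7.36 on KO floating 1, 2 and 3. WT floating 1 had 7.82, WT floating 3 had 7.84 and the array labelled WT floating 2 had 7.25, within the range of KO floating.

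Prom1 followed neither course, and Msi1 spanned a small range. Prom1, the membrane glycoprotein CD133 used to sort neural stem cells, had 1.45 and 0.18 on KO adherent 1 and 2 and 1.01, 0.90 and 2.73 on KO floating 1, 2 and 3, against 1.45, 0.82 and 0.88 on WT floating 1, 2 and 3. KO floating 3 was far above all other arrays and the array labelled KO adherent 2 was below them. Msi1, an RNA-binding protein of neural progenitors, had -0.77 and -0.75 on KO adherent 1 and 2 and -1.004, -0.90 and -0.89 on KO floating 1, 2 and 3, against -0.65, -1.08 and -0.67 on WT floating 1, 2 and 3. Its whole range was 0.42, with WT floating 1 and 3 highest and the array labelled WT floating 2 lowest on this probe.

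**Figure D2:**
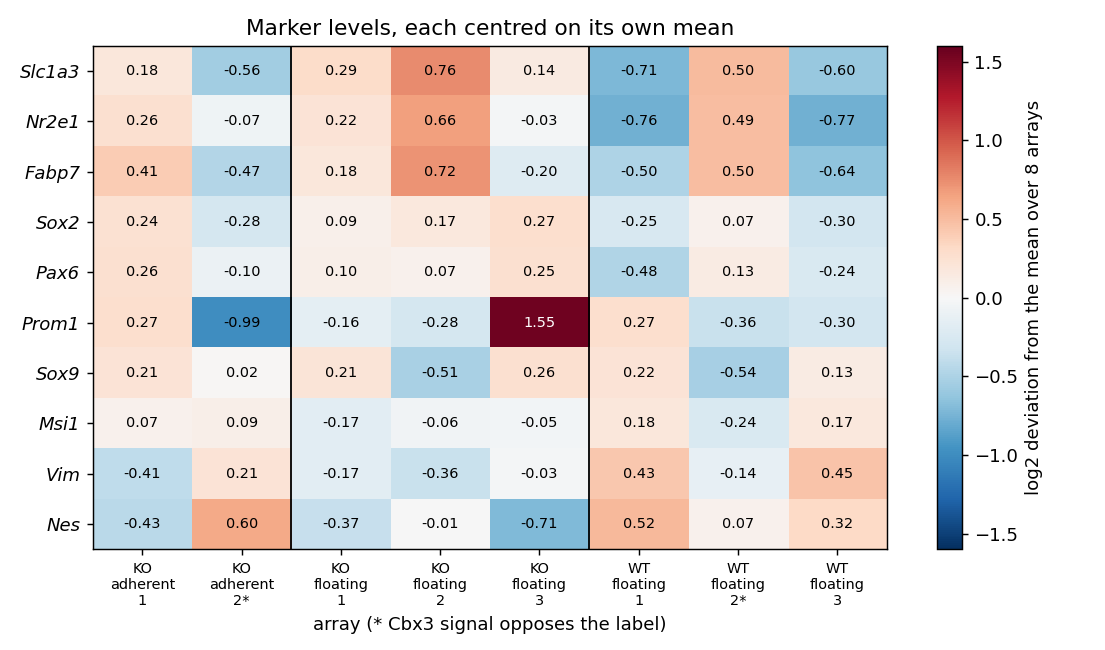
Deviation of each marker from its own mean over the 8 arrays, in log2 units (red above, blue below), with KO adherent, KO floating and WT floating arrays from left to right and an asterisk on the 2 arrays whose Cbx3 signal opposes the label. Slc1a3, Nr2e1 and Fabp7 were below their mean on WT floating 1 and 3, where Vim and Nes were above theirs.

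For 3 genes a dimmer probe was also on the array. The second probe of Prom1, above background on 5 of 8 arrays, had its highest value, -1.98, on KO floating 3, as the brighter one did. The second probe of Pax6, above background on 4 of 8 arrays, had signals of -4.00 to -3.83 in KO floating and -5.68 to -4.26 in WT floating. Because some of these were not above background, no size is given for it. The probes of Msi1 disagreed. The dimmer one, above background on 6 of 8 arrays, had signals of -3.63 to -3.43 in KO floating and -4.85 to -3.97 in WT floating, while the brighter one differed by -0.13, so no direction is given for Msi1.

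**Figure D3:**
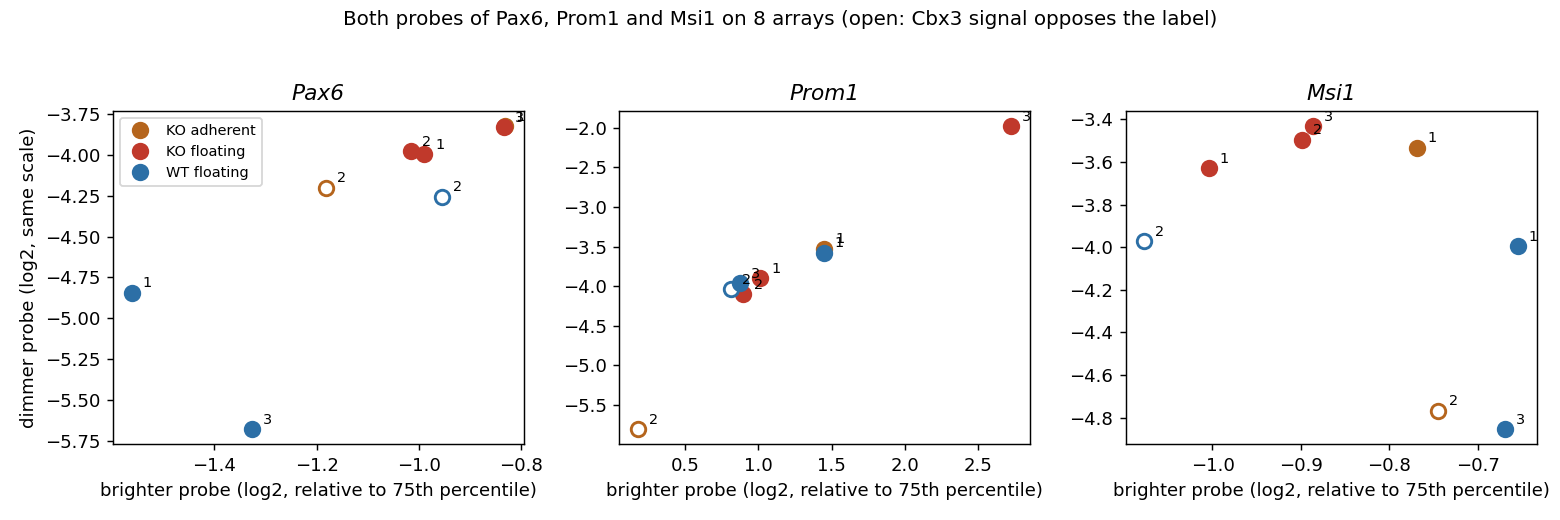
Dimmer against brighter probe of Pax6, Prom1 and Msi1 on 8 arrays, both axes in log2 signal relative to the 75th percentile of the array, with the replicate number beside each point and the 2 arrays whose Cbx3 signal opposes the label drawn open. In the Prom1 panel KO floating 3 is highest on both probes (2.73 and -1.98), and in the Msi1 panel the probes do not rise together. Some signals of the dimmer probes were not above background.

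Some members resembled each other and some other genes across the 8 arrays. The measure was the root mean square difference of 2 genes after each was centred on its mean over these 8 arrays, which share a slide and a scaling, and it is a description of them. Among the members the closest pair was Sox2 and Pax6 at 0.113, followed by Fabp7 and Slc1a3 at 0.174, Fabp7 and Nr2e1 at 0.198 and Slc1a3 and Nr2e1 at 0.200. The measure is not scaled to the spread, so genes of small SD, such as Sox2 and Pax6, lie close more easily. Sox2 and Pax6 had a Pearson r of 0.883 over the 8 arrays. It was higher for Fabp7 and Slc1a3 (0.942), Slc1a3 and Nr2e1 (0.9235) and Fabp7 and Nr2e1 (0.919). Among 11835 other genes above background on all arrays, the closest to Slc1a3 were Snrk, a kinase, at 0.0651, Zfp974 at 0.0905 and Ap3m2, an adaptor protein subunit, at 0.0940. The closest to Nr2e1 were Zfp454 at 0.0969, Pdhx, a pyruvate dehydrogenase component, at 0.101 and Tacc2, a centrosomal protein, at 0.104. Prom1, the member with the largest SD, had no near neighbour by this unscaled measure. Lrrc24 at 0.328, Maml3 at 0.369 and 4833422C13Rik at 0.388 were the closest.

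In KO floating against WT floating neurospheres as labelled, 0 of 10 markers passed the test. The test was limma over 22647 features with a Benjamini-Hochberg adjusted p of 0.05, which called 0.00442% of them (1.73% were under an unadjusted p of 0.05, as were 0 of 10 markers). Markers with the larger differences were Slc1a3, which averaged 6.29 ± 0.32 in KO floating and 5.62 ± 0.67 in WT floating, and Nes, which averaged 4.38 ± 0.35 in KO floating and 5.04 ± 0.23 in WT floating (SD, n = 3 each). Their differences were 0.67 (SE 0.38) and -0.67 (SE 0.32), each with a limma adjusted p of 0.813. Of the 10 fitted differences 7 were positive, with a median of 0.34, beside a median of -0.027 over all features. Groups did not overlap for Sox2 and Nes, 2 of 10 markers, against 8.4% of all features. Within the first row of the slide, with 2 arrays of each group including the array labelled WT floating 2, the median difference was 0.11. Within the second row, which held only KO floating 3 and WT floating 3 of these groups, it was 0.47. Without KO floating 3 the median of the fit was 0.094.

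Without the 2 arrays whose Cbx3 signal opposes the label, the same comparison had larger differences and still called 0 of 10 markers. Of 25962 features 46 passed in limma, 0.177%, and 25.3% were under an unadjusted p of 0.05, as were 7 of 10 markers. The difference was 1.06 for Slc1a3 (SE 0.24, limma adjusted p = 0.109). It was 1.05 for Nr2e1 (SE 0.25, limma adjusted p = 0.115). Vim differed by -0.63 (SE 0.17) and Nes by -0.78 (SE 0.26), with limma adjusted p-values of 0.133 and 0.158. The difference of Sox9 was -0.19 here, and 0.045 on the 8 arrays. KO floating and WT floating did not overlap for 8 of 10 markers, against 51.1% of all features.

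With KO adherent 1 and the 3 KO floating arrays taken as 1 group of 4 and set against WT floating 1 and 3, 5 of 10 markers passed, 3 higher and 2 lower in KO. In this fit 3722 of 21463 features passed in limma, 17.3%, with 8.99% higher and 8.35% lower in KO, and 37.7% were under an unadjusted p of 0.05. Slc1a3 rose 2.0-fold, averaging 6.23 ± 0.28 in KO (SD, n = 4) and 5.23 ± 0.08 in WT (SD, n = 2; limma adjusted p = 0.0303). Nr2e1 rose 2.06-fold, averaging 1.39 ± 0.28 in KO (SD, n = 4) and 0.35 ± 0.0022 in WT (SD, n = 2; limma adjusted p = 0.0273). Pax6 rose by 0.53 on the log2 scale (SE 0.14) at the edge of the threshold (limma adjusted p = 0.0499). It did not pass with normexp background correction (limma adjusted p = 0.0845) or quantile normalization (limma adjusted p = 0.0513).

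The filament genes fell in this comparison. Vim averaged 7.15 ± 0.18 in KO (SD, n = 4) and 7.83 ± 0.014 in WT (SD, n = 2), a difference of -0.68 (SE 0.16, limma adjusted p = 0.0365). With the replicate number as a block its difference was -0.62 and no longer passed (limma adjusted p = 0.0522). Nes averaged 4.36 ± 0.29 in KO (SD, n = 4) and 5.16 ± 0.14 in WT (SD, n = 2), a difference of -0.80 (SE 0.21, limma adjusted p = 0.0495). With quantile normalization Vim differed by -0.17 and Nes by -0.58, and neither passed (limma adjusted p = 0.397 and 0.156).

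The other 5 markers did not pass there. Sox2 differed by 0.47 (SE 0.12), just outside the threshold (limma adjusted p = 0.05004), and Fabp7 by 0.85 (SE 0.26, limma adjusted p = 0.0692). Prom1 differed by 0.36 (SE 0.53), Sox9 by -0.13 (SE 0.25) and Msi1 by -0.23 (SE 0.13), with limma adjusted p-values of 0.637, 0.712 and 0.235. KO and WT did not overlap for 8 of 10 markers, against 53.4% of all features. All 5 calls were lost when any 1 of WT floating 1, WT floating 3, KO floating 1 or KO adherent 1 was left out, while the difference of Slc1a3 stayed between 0.86 and 1.07 and that of Nr2e1 between 0.92 and 1.15 over the arrays left out in turn. The fit was chosen after the Cbx3 values were seen, and it cannot separate culture from genotype for KO adherent 1.

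**Figure D4:**
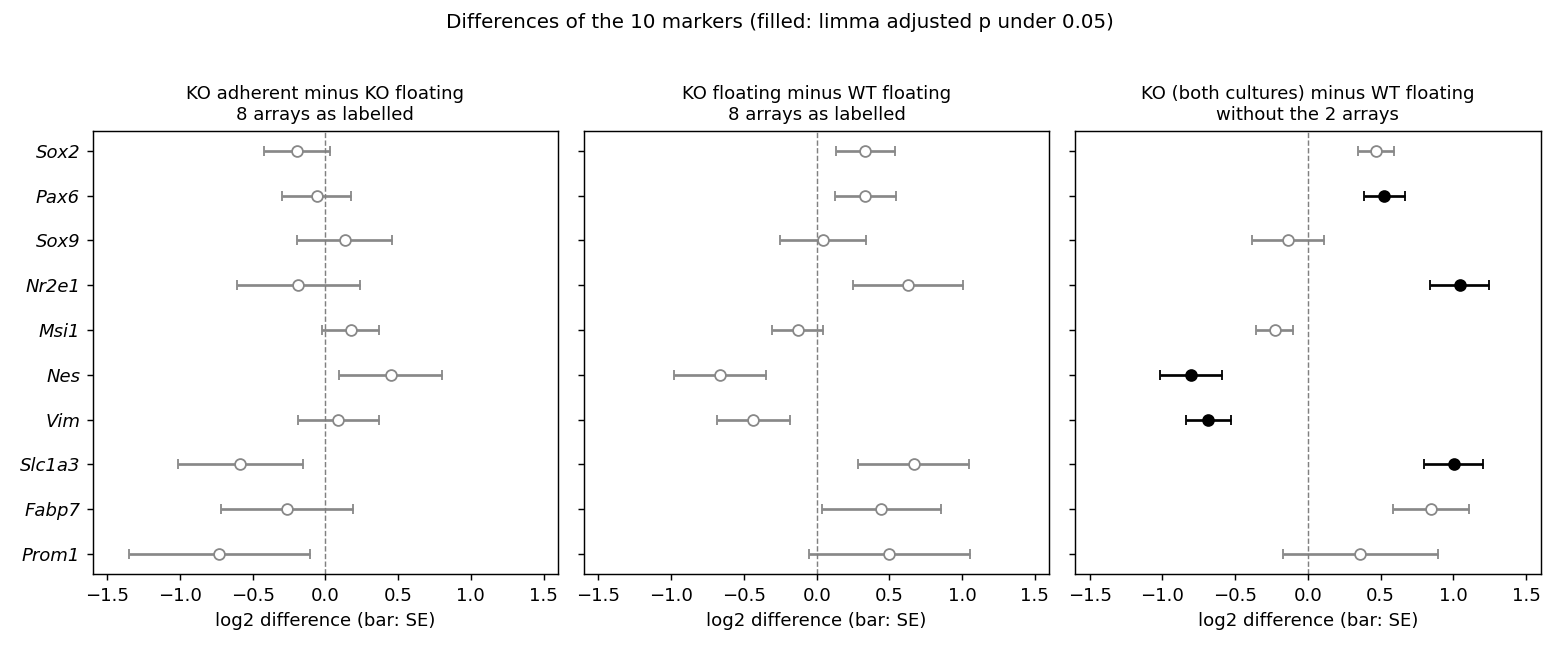
Log2 difference of each marker with its SE, from left to right for KO adherent minus KO floating and KO floating minus WT floating on the 8 arrays as labelled, and for the 4 remaining KO arrays minus WT floating 1 and 3. Filled points passed a limma adjusted p of 0.05, which 0, 0 and 5 of 10 markers did, with Slc1a3, Nr2e1 and Pax6 on the higher side and Vim and Nes on the lower side in the last panel.

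Between the 2 KO cultures as labelled, adherent against floating, 0 of 10 markers passed in limma, as did 0% of 22647 features. Under an unadjusted p of 0.05 were 0 of 10 markers and 1.12% of features. Slc1a3 averaged 5.70 ± 0.52 in KO adherent (SD, n = 2) and 6.29 ± 0.32 in KO floating (SD, n = 3), a difference of -0.58 (SE 0.43, limma adjusted p = 0.99). Nes averaged 4.82 ± 0.73 in KO adherent and 4.38 ± 0.35 in KO floating, a difference of 0.45 (SE 0.35, limma adjusted p = 0.99). Both group means hold the array labelled KO adherent 2. Without the 2 arrays the difference of Slc1a3 was -0.22 (SE 0.30) and that of Nes -0.069 (SE 0.32), where the single adherent array was given the spread of the other groups. In that fit 0 of 10 markers passed in limma or were under an unadjusted p of 0.05, against 0% and 3.85% of features. The median over the 10 markers was 0.023 there. On the 8 arrays it was -0.12, beside 0.056 over all features, and 1 of 10 markers, Msi1, had groups that did not overlap, against 12.8% of all features. KO adherent and WT floating differ in both culture and genotype. There 0 of 10 markers passed in limma, against 0.00442% of features, and 0 were under an unadjusted p of 0.05, against 1.79%. Without the 2 arrays 0 passed, against 0.0154%, and 4 were under an unadjusted p of 0.05, against 22.7%.

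Further genes of neural stem cells were read from a list of 28, of which 27 were tested. As labelled, 0 of 27 passed in KO floating against WT floating, with 20 positive differences and a median of 0.17. With the KO cultures joined and without the 2 arrays, 5 rose and 1 fell in KO, against 17.3% of all features called, and the median was 0.45 beside -0.074 over all features. Hes5, a Notch effector that represses neuronal differentiation, averaged 8.10 ± 0.46 in KO (SD, n = 4) and 4.88 ± 0.33 in WT (SD, n = 2; limma adjusted p = 0.00762). Ttyh1, a membrane protein of radial glia, averaged 6.91 ± 0.34 in KO and 5.25 ± 0.20 in WT (limma adjusted p = 0.0153). Ednrb, the endothelin B receptor, averaged 4.38 ± 0.43 in KO and 3.24 ± 0.05 in WT (limma adjusted p = 0.0432). Tnc, the matrix protein tenascin C, fell, averaging -1.01 ± 0.57 in KO and 1.07 ± 0.39 in WT (limma adjusted p = 0.0238).

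Some markers of more differentiated cells also passed in the joined comparison, in which 8.99% of all features rose and 8.35% fell. Of 9 tested oligodendrocyte lineage genes 4 rose and 1 fell. Among those that rose were Olig1, a lineage factor, by 1.93, Pdgfra, a growth factor receptor of progenitors, by 1.50 and the proteoglycan gene Cspg4 by 0.58 on the log2 scale, while the myelin gene Mbp fell by 1.56. The largest limma adjusted p of these 4 was 0.0495, that of Cspg4. The summed signal of the 9 genes, in multiples of the 75th percentile and weighted toward bright probes such as that of Olig1, was 137 to 198 on the 4 KO arrays and 51.0 to 52.9 on WT floating 1 and 3. It was 194 on the array labelled WT floating 2 and 78.7 on the array labelled KO adherent 2. Of 8 astrocyte genes 4 rose and 1 fell, with a summed signal of 211 to 338 on the 4 KO arrays and 101 to 165 on WT floating 1 and 3. This sum, also weighted toward bright probes, was 264.5 on the array labelled WT floating 2 and 150.6 on the array labelled KO adherent 2. Aldoc, a glycolytic enzyme, rose by 2.79 and the calcium-binding protein gene S100b by 1.51 on the log2 scale, each with a limma adjusted p of at most 0.0211. The water channel gene Aqp4 was called on a dim probe only (limma adjusted p = 0.0326), and no size is given for it. This probe was above background on 4 of 4 KO and 0 of 2 WT arrays. Another probe, tested on the 8 arrays as labelled, differed by 0.025 between KO floating and WT floating. It was above background on 2 of 3 arrays in each of these groups. The 2 comparisons use different arrays, so they do not show whether the probes disagree. Slc1a2, the other main glutamate transporter of glia, averaged 1.90 ± 0.31 in KO (SD, n = 4) and 0.11 ± 0.24 in WT (SD, n = 2; limma adjusted p = 0.012). Gfap was lower in KO (limma adjusted p = 0.0211). It was above background on 1 of 4 KO arrays and on both WT arrays, so no size is given for it. Aqp4 was tested only because all 4 KO arrays had it above background, and Gfap only because both WT arrays did. This favours a call in the direction each took.

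Of 9 tested neuronal genes 3 rose and 0 fell there, beside 8.99% and 8.35% of all features. The 12 listed genes had a summed signal of 41.4 to 52.0 on the 4 KO arrays and 48.0 to 52.7 on the 2 WT arrays. Tubb3, neuronal tubulin, averaged 1.29 ± 0.19 in KO and 0.036 ± 0.093 in WT (limma adjusted p = 0.0126). Rbfox3, a nuclear splicing factor of neurons, was higher in KO (limma adjusted p = 0.0363). It was above background on 4 of 4 KO and 1 of 2 WT arrays, so no size is given for it. Dcx, a microtubule protein of young neurons, was not well above background on either WT array and was at least 2.75-fold higher in KO (limma adjusted p = 0.0427). For this bound the WT level on each array is the lowest signal among detected probes, or the probe's own signal where that is higher. Rbfox3 and Dcx were tested only because all 4 KO arrays had them above background, which favours a call higher in KO. Stmn2, Nefl and Nefm were not above background on any array. Of 13 genes of endothelium, microglia, mesenchyme and blood 4 were tested and 0 passed (Itgam differed by 0.67 and Kdr by -0.14). Cdh5, Aif1, Cx3cr1, Pdgfrb, Rgs5 and Hbb-bs were not above background on any array. The summed signal of the 13 genes was 27.6 to 35.5 on the 4 KO arrays and 23.9 to 26.3 on WT floating 1 and 3. The part of these cell types in the levels of Slc1a3 and the other markers was not tested.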

How the data were processed

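RNA of each sample was labelled with Cy3 on its own array, and the 8 Agilent arrays shared a slide. The authors' scanner files hold spot intensity on a linear scale. Feature Extraction was version 11.0.1.1 per the file headers, and 9.1.3.1 per the submitters' processing notes. The authors' deposited value table gives probe intensity, and 99.2% of its values lay within 0.01% of the processed signal. The deposited intensity was taken to log2 after scaling by the 75th percentile of all non-control spots on its array. Outlier spots were left out and repeated spots averaged. A probe was tested if all arrays of some group had it well above background and none had a missing value. For each gene the probe with the highest mean was used. Probes were named through accessions without versions in a RefSeq table of GRCm38.p6, and the array design refers to mm9, so no gene coordinates are given beside the promoters.

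Differences were tested two-sided with limma 3.58.1 (R 4.3.3), using lmFit and eBayes on 3 groups of 8 arrays, and p-values were adjusted over all features (Benjamini-Hochberg, 0.05). The number of arrays limits the precision. On simulated data with 22647 features, the fit for KO floating against WT floating recovered 16.4% of changes of 2-fold and 58.2% of those of 4-fold. For the joined fit with 21463 features the shares were 37.3% and 62.7%. The simulation changed 67 features by 2-fold, 67 by 4-fold and 66 by 8-fold, with independent noise for each feature. Its spread for the first fit included the 2 arrays whose Cbx3 signal opposes the label. The real joined fit called 3722 features, many more than were changed, so these shares may not hold for it. The members, the lists and the fits without 2 arrays were chosen with earlier results of these data known. The named genes are all members, up to 4 passing genes of each list per direction, and the 3 genes closest to each of the 3 most variable members. Some genes that this rule would name are not reported here. Nr4a1 and Cbx3 are named as checks, and Itgam and Kdr as the tested genes of a list without a call. Deviations from the group mean correlated within the 3 same-numbered pairs of floating arrays (r = 0.103, 0.590 and 0.335 across features). However, 2 pairs with different numbers did so too, KO floating 3 with WT floating 1 (0.346) and KO floating 1 with WT floating 3 (0.205). The same-numbered pairs of KO adherent and KO floating arrays gave -0.0544 and -0.285. With only 2 KO adherent arrays their deviations mirror each other, so these values are not separate evidence on pairing. Both deviations also rest on the array labelled KO adherent 2, whose Cbx3 signal opposes the label. The correlations do not settle whether arrays of the same number are paired. The tests reported use no pairing, and the replicate block is among the settings tried. Settings tried were other normalizations, normexp with an offset of 50 on the median spot signal (the files hold no mean spot signal), the authors' table, other probe filters and rules, trend and robust eBayes, replicate and slide-row blocks, and leaving out each array.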

Additional observations from a re-analysis of the deposited data

How the results depend on the processing

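For KO floating against WT floating as labelled, 0 of 10 markers passed under every setting tried, and the count of 1 feature became 0 with the replicate block, the slide row as a block, normexp, trend and robust eBayes, no filter, a fit of those 2 groups alone and a filter that asked for detection on 8 of 8 arrays, and 46 without the 2 arrays. With 1 array left out it was 0 to 3, and the median of the markers was 0.094 to 0.42. For KO adherent against KO floating, 0 features became 7 with quantile normalization and 0 to 6 with 1 array left out, where the median of the markers was -0.29 to 0.023. For KO adherent against WT floating, 1 feature became 8 with quantile normalization, 4 without the 2 arrays, and 0 under the same 7 settings as above, and 0 to 3 with 1 array left out. The replicate block changed no other call than those of Vim and of these features.

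In the joined comparison, 3722 features became 179 with no filter and 462 to 5372 with 1 array left out. The 5 markers became 3 with quantile normalization, 0 with no filter and 0 to 6 with 1 array left out. Their median of 0.41 became 0.35 with normexp, 0.53 with the replicate block and 0.20 to 0.52 with 1 array left out. Differences that changed sign were all outside the threshold, and the cause was not tested. In KO floating against WT floating these were Msi1 at 0.31 with the mean over probes and Sox9 at -0.19 without the 2 arrays. With 1 array left out Sox9 ranged from -0.19 to 0.29 and Prom1 from -0.091 to 0.82. In KO adherent against KO floating they were Vim at -0.076 with quantile normalization and Msi1 at -0.23 with the mean over probes. With the slide row as a block Fabp7 was 0.17, Vim -0.093, Nr2e1 0.18 and Sox9 -0.10. Without the 2 arrays Nes was -0.069, Sox2 0.070, Pax6 0.11, Fabp7 0.18 and Vim -0.22. With 1 array left out, Sox9 ranged from -0.12 to 0.27, Nes from -0.069 to 0.96, Sox2 from -0.46 to 0.070, Pax6 from -0.24 to 0.11, Fabp7 from -0.70 to 0.18 and Vim from -0.22 to 0.40. In the joined comparison Sox9 was 0.0046 with quantile normalization and 0.048 with the replicate block, Msi1 was 0.34 with the mean over probes, and with 1 array left out Sox9 ranged from -0.21 to 0.050 and Prom1 from -0.040 to 0.65.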
